A study of Caenorhabditis elegans with 2 samples.

Results

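The proteasome genes of Caenorhabditis elegans were taken as all protein-coding genes of the WBcel235 annotation (ce11 coordinates) whose symbol starts with pas-, pbs-, rpn- or rpt-. This gave 33 of 19973 nuclear protein-coding genes. They comprise 14 genes of the core particle, with 7 for its alpha ring (pas-) and 7 for its beta ring (pbs-), and 19 genes of the regulatory particle, with 10 for its base and 9 for its lid. The rule selects by symbol, and the gene family was picked for description with earlier results of these data known.

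Chromatin of a tagged transcription factor was immunoprecipitated from whole L2 larvae, pooled male and female, and sequenced in 2 biological replicates of a single group, with DNA fragments of 150 to 350 bp. The strain, OP355, has the genotype unc-119(tm4063) III with the transgene wgIs355, and both replicates carry both. The labels name mdl-1, a Mad-like basic helix-loop-helix factor, as the tagged gene in some fields and ZK337.2 (klu-1) in another, and the promoter that drives the transgene is not given in the sources used here. No untreated or untagged group was analysed here, so the values below describe where peaks lay, in each replicate and in both together.

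The proteasome degrades proteins that carry ubiquitin chains. Its core particle is a barrel of stacked rings, in which alpha subunits gate the entrance and some beta subunits carry the proteolytic sites. The regulatory particle sits on the core: the base holds a ring of ATPases (rpt- genes) that unfold substrates and several ubiquitin receptors, and the lid holds the deubiquitinase RPN-11 among scaffold subunits. Since the subunits assemble in fixed proportions, their genes are often expressed together in animals, and in worms the factor SKN-1 raises their expression when proteasome activity falls. Mad proteins pair with Max-like partners on the E-box CACGTG and are known mainly as repressors.

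The deposited optimal list by irreproducible discovery rate (IDR) holds the strongest part of the pooled peaks, and the relaxed lists hold 28651 pooled peaks and 30000 peaks for each replicate. The IDR peaks are exactly the pooled peaks of highest signal, with signal values from 32.5 to 986. The signal is the authors' own value per peak, its scaling is not given in the sources used here, and it is compared only within a list. The top peak of the IDR list and of both replicates lay at mdl-1, 97 bp upstream of its start in the IDR list, and klu-1 had 0 IDR summits in its promoter window. Read depth is unknown, and exact binomial intervals below cover counting error over genes only. Genes of a list are not independent replicates.

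The promoter window of a gene ran from 1000 bp before to 200 bp after any of its annotated transcript starts, and a gene was counted where it held a peak summit. IDR summits lay in the promoter windows of 7 of the 33 proteasome genes (21.2%, exact 95% interval 8.98 to 38.9), against 6.55% of all protein-coding genes. They were the core genes pas-5 and pbs-1, the base genes rpt-2 and rpn-13, and the lid genes rpn-3, rpn-9 and rpn-11. No proteasome gene lies on chromosome X, which holds 24.4% of the IDR peaks and 13.7% of the genes, and among autosomal genes the background share was 6.12%. The highest-signal peaks of a replicate, as many as the IDR list holds, are called its top list. In that of replicate 1 the count was 7 of 33 against 6.36% of all genes, and in the top list of replicate 2 it was 5 of 33 (15.2%) against 6.46%. At IDR peaks that overlap a top peak of both replicates it was 4 of 33 (12.1%) against 4.57%. The genes differed between the top lists: rpt-2, rpn-9 and rpn-11 were in both, pas-5, pbs-1, pbs-7 and rpn-5 in that of replicate 1 and rpn-3 and rpn-13 in that of replicate 2.

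**Figure D1:**
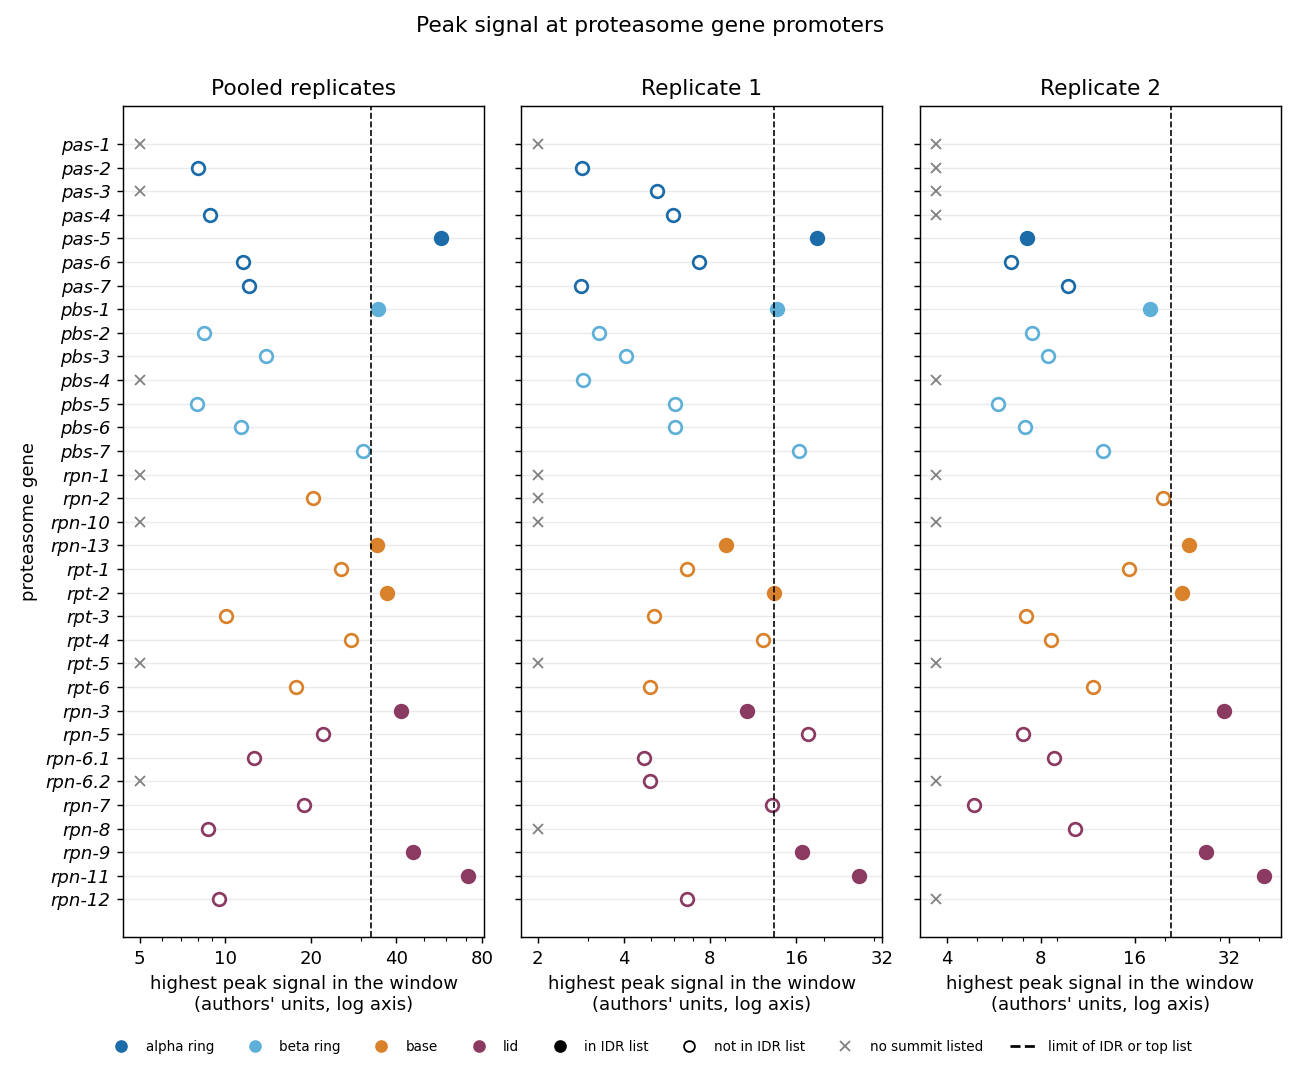
Highest peak signal in the promoter window of each of the 33 proteasome genes (rows, coloured by ring or subcomplex) in the pooled, replicate 1 and replicate 2 relaxed lists, on log axes in the authors' units. Filled circles are genes with an IDR summit, open circles are other genes, crosses are genes with no summit in that list, and dashed lines mark the lowest signal of the IDR list (32.5) and of each top list (13.3 and 20.9). The filled circles lie to the right of the line in the pooled panel, while several of them fall to its left in a single replicate.

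The peak of highest signal was at a lid gene. The gene rpn-11 (II, 4043055 to 4044546, minus strand) encodes the metalloprotease that removes ubiquitin chains from substrates as they enter. Its summit lay 18 bp upstream of the start, with a signal of 71.2 (rank 634) in the IDR list, 26.5 (rank 693) in replicate 1 and 41.5 (rank 730) in replicate 2. The ranks in the 3 lists were close, and the replicate summits lay 1 and 14 bp from the IDR summit. The peak is 131 bp wide, whereas 81.3% of IDR peaks have the fixed width of 376 bp and 16.6% are narrower.

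The other lid genes with an IDR summit encode scaffold subunits. At rpn-9 (II, 11237447 to 11238919, minus strand) the summit lay 249 bp upstream, with a signal of 45.7 (rank 1293), 16.8 in replicate 1 (rank 1490) and 27.1 in replicate 2 (rank 1434). At rpn-3 (III, 8447353 to 8449346, plus strand) it lay 191 bp upstream, with a signal of 41.6 (rank 1465), 10.8 in replicate 1 (rank 2893) and 30.8 in replicate 2 (rank 1187). The rpn-9 peak ranked similarly in both replicates, and the rpn-3 peak ranked higher in replicate 2 and lay outside the top list of replicate 1.

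The base genes with an IDR summit were an ATPase gene and a ubiquitin receptor gene. At rpt-2 (V, 6016059 to 6017669, minus strand), which encodes an ATPase of the ring, the summit lay 151 bp upstream, with a signal of 37.0 (rank 1735), 13.4 in replicate 1 (rank 2077) and 22.6 in replicate 2 (rank 1862). At rpn-13 (III, 6340113 to 6341928, minus strand), a receptor for ubiquitin chains, it lay 335 bp upstream, with a signal of 34.2 (rank 1945), 9.09 in replicate 1 (rank 3841) and 23.9 in replicate 2 (rank 1737). The replicate 1 summit of the rpn-13 peak was 98 bp from the IDR summit. The rpt-2 peak was in both top lists, close to their ends, and the rpn-13 peak was in that of replicate 2 alone.

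In the core particle, pbs-1 (IV, 1708814 to 1709745, minus strand) encodes a beta ring subunit. Its summit lay 226 bp upstream, with a signal of 34.6 (rank 1912), 13.8 in replicate 1 (rank 2003) and 17.9 in replicate 2 (rank 2632). The alpha ring gene pas-5 (I, 10566350 to 10567300, plus strand) had a higher signal, 57.6 (rank 886), but its summit lay 988 bp upstream, 12 bp inside the edge of the window. The gene before it, ubc-25, lies on the same strand 1446 bp away. The nearest replicate 1 summit lay 26 bp from the IDR summit with a signal of 19.0 (rank 1219). A stronger overlapping peak of replicate 1, with a signal of 23.9 (rank 856), had its summit 1164 bp upstream, outside the window. The nearest replicate 2 summit lay 21 bp from the IDR summit with a signal of 30.4 (rank 1214). It was 1009 bp upstream of the start and so also outside the window. Inside the window the strongest replicate 2 summit had a signal of 7.24 (rank 14294). The pas-5 peak therefore had a counterpart of similar rank in both replicates, and its count for pas-5 depends on where the window ends.

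**Figure D2:**
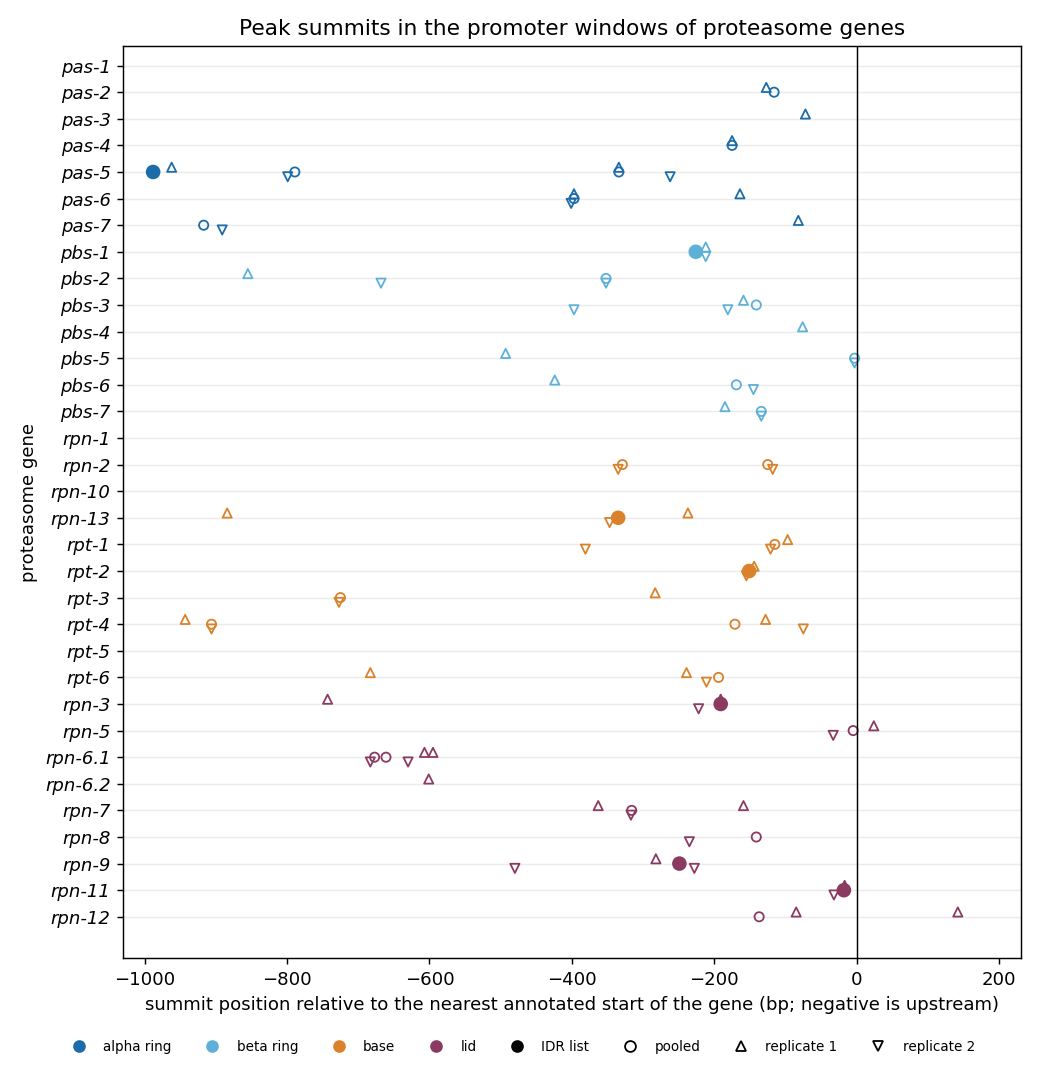
Summits in the promoter windows of the proteasome genes, by position relative to the nearest annotated start of the gene in bp (negative is upstream), for the IDR list (filled circles), the pooled list (open circles), replicate 1 (upward triangles) and replicate 2 (downward triangles), coloured by ring or subcomplex. The IDR summits lie 18 to 335 bp upstream, except that of pas-5 at 988 bp, and the rows of pas-1, rpn-1, rpn-10 and rpt-5 are empty.

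Among genes with an IDR summit, most of the proteasome genes were in the lower part of the signal range. The median signal of the 7 genes was 41.6 (34.2 to 71.2), against 52.6 for the 1301 other genes with an IDR summit. The exceptions, rpn-11 (71.2) and pas-5 (57.6), lay above that median of the other genes. None of the 33 proteasome genes had a summit among the 500 highest IDR peaks, against 1.6% of other protein-coding genes. At so low a share, 0 of 33 does not set the proteasome genes apart. The members nearest to the end of the IDR list were rpn-13 and pbs-1, and the nearest below it was pbs-7. The median summit position was 226 bp upstream of the start for proteasome genes and 268 bp upstream for the others. Summits downstream of the start entered these medians as negative values. These are descriptions with no test.

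**Figure D3:**
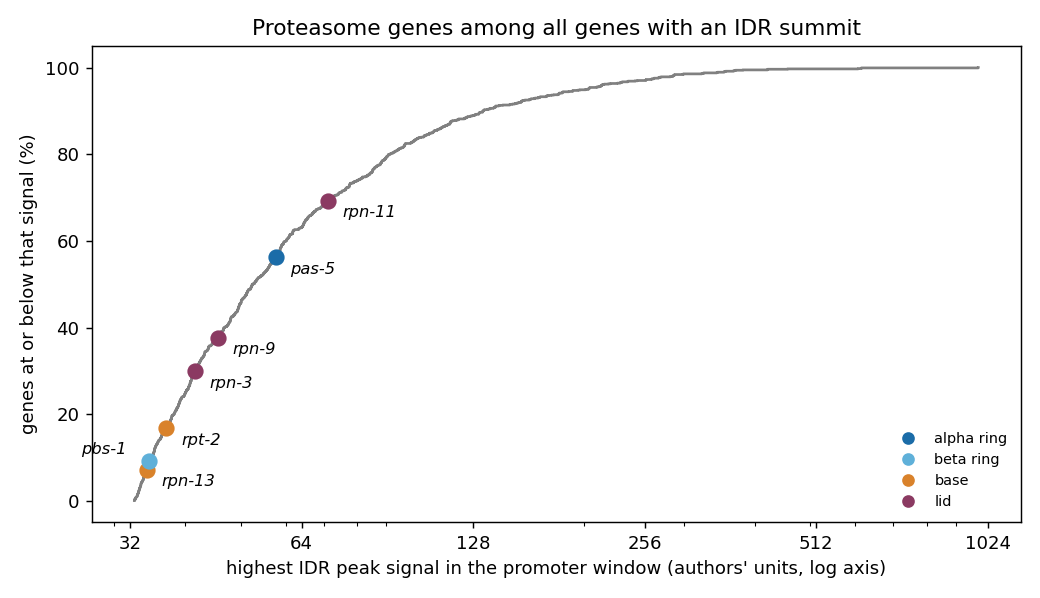
Cumulative share of the 1308 genes with an IDR summit (vertical axis, percent) by their highest IDR signal (horizontal log axis, authors' units), as a grey line, with the 7 proteasome genes as points coloured by ring or subcomplex. All but pas-5 and rpn-11 lie below the median of the other genes, 52.6.

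The sequences under 6 of these summits are shown to allow the absence of the canonical E-box to be read directly. Each runs 50 bp to either side of the IDR summit, from the RefSeq copy of the WBcel235 (ce11) genome, 5′ to 3′ on the strand of the gene. Capitals mark matches to CANNTG (any E-box), to CTGCGTCT and to TATCAT or TGTCAT (the core of the SKN-1 site), each on either strand.
rpn-11 (chrII:4044514-4044614, minus strand): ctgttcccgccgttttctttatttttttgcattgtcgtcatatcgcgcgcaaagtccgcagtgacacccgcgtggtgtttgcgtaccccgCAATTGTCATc
rpn-9 (chrII:11239118-11239218, minus strand): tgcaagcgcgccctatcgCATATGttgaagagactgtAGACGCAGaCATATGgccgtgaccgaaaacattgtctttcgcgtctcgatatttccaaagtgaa
rpn-3 (chrIII:8447112-8447212, plus strand): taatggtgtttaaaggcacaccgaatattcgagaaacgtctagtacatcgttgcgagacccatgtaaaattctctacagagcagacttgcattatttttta
rpt-2 (chrV:6017770-6017870, minus strand): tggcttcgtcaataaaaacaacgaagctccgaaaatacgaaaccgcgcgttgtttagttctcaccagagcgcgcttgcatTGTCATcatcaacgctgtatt
pbs-1 (chrIV:1709921-1710021, minus strand): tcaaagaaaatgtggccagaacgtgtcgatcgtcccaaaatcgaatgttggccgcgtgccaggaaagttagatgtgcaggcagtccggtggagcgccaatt
rpn-13 (chrIII:6342213-6342313, minus strand): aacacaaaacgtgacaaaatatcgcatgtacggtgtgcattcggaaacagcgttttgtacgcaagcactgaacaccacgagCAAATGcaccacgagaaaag

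None of these 6 windows held CACGTG, nor did the window of pas-5, so the canonical E-box was at 0 of 7 proteasome summits, against 17.2% of all IDR summits. GAGAGA was also at 0 of 7, against 32.2%. Within 100 bp of the summit the count for CACGTG was 0 of 7, against 22.6% of all IDR summits. That fixes the count within 25 bp, where the share of all IDR summits was 9.65%. Any E-box of the form CANNTG, which takes in the canonical one, lay at 4 of 7 summits, against 48.7% of all IDR summits. Within 25 bp of the summit it lay at 1 of 7, against 29.2%, so the count depends on the width searched. The rpn-9 window held CATATG at 2 places, with a match to CTGCGTCT on the opposite strand between them, its middle 9.5 bp from the summit. That was the only CTGCGTCT at a proteasome summit (1 of 7, against 12.2% of all). In the rpn-11 window CAATTG overlapped TGTCAT, which also occurred in the rpt-2 window (2 of 7, against 10.7% for either spelling of the SKN-1 core). That count also moved with the width, to 0 of 7 within 25 bp (against 5.47% of all) and 3 of 7 within 100 bp (against 20.3%). Hexamers that differ from CACGTG by 1 base, searched for after the sequences were seen, lay at 3 of 7 summits, against 44.7% of all. The mean share of G or C was 47.4% in the 7 windows and 47.6% over all IDR summits. With 7 peaks these counts are descriptions.

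The canonical E-box was also counted at the starts of all proteasome genes. From 250 bp upstream to 50 bp downstream of the most upstream start, CACGTG occurred at 1 of 33 proteasome genes, rpn-6.2, against 5.84% of all genes. Over the whole promoter window it occurred at 5 of 33, namely pas-3, pas-5, pbs-3, rpn-10 and rpn-6.2, against 18.4% of all genes. Of these genes pas-5 alone had an IDR summit, and its nearest CACGTG lay 540.5 bp from that summit. The SKN-1 core, TATCAT or TGTCAT, occurred from 250 bp upstream to 50 bp downstream at 15 of 33 proteasome genes (45.5%), against 32.4% of all genes. A match is a description of the letters and does not show a site in use.

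Of the 7 peaks, 4 also lay in the promoter window of another gene, against 24.5% of the 1102 IDR peaks in promoter windows. In each of the 4 cases the neighbour starts on the opposite strand. The rpn-3 peak lay 253 bp upstream of hsp-110, which encodes a chaperone. The rpt-2 peak lay 150 bp upstream of aps-1, which encodes a subunit of a clathrin adaptor and whose start was the nearer by 1 bp. The rpn-9 peak was 429 bp upstream of T06D8.9 and the pbs-1 peak 294 bp upstream of K08D12.3. Such peaks cannot be assigned to either gene from these files. The next gene upstream was on the opposite strand at 4 of the 7 genes with an IDR summit and at 19 of the 26 without one. That count takes neighbours at any distance, such as 3538 bp at pbs-4, and the overlapping neighbour of rpt-4. The share over all genes was not counted.

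Below the IDR list, 19 further proteasome genes had a pooled relaxed summit in the window. In all 26 of 33 had one (78.8%, exact 95% interval 61.1 to 91), against 41.9% of all genes. The relaxed list of replicate 1 held 27 of 33, against 42.2% of all genes, and that of replicate 2 held 23 of 33, against 42.7%. Summits were in both replicate lists for 21 of 33 (63.6%), against 26.5% of all genes. This count asks for a summit anywhere in the window in each list, not for the same peak. At pas-7, for example, the summit lay 82 bp upstream in replicate 1 and 891 bp upstream in replicate 2. The Spearman correlation of the highest signal per gene between replicates was 0.27 over these 21 genes. Over all 5286 genes with a summit in both lists it was 0.66. The relaxed lists are named as peaks and background in the deposited readme, and the lowest signal in the pooled list is 6.35. The median pooled signal of the 19 genes was 12.1.

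The strongest of these was at pbs-7, a beta ring gene that fell just short of the IDR list. Its pooled signal was 30.5 (rank 2278), with 16.4 in replicate 1 (rank 1547) and 12.6 in replicate 2 (rank 4697), and its summit lay 134 bp upstream and also 168 bp upstream of F39H11.1. At the ATPase gene rpt-1 the pooled signal was 25.5 (rank 2933), with 6.67 in replicate 1 (rank 6613) and 15.4 in replicate 2 (rank 3352), 115 bp upstream. The former ranked higher in replicate 1 and the latter in replicate 2.

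At the ATPase gene rpt-4 the pooled signal was 27.7 (rank 2608), with 12.3 in replicate 1 (rank 2399) and 8.65 in replicate 2 (rank 9929). That summit lay 171 bp upstream of the start of the shorter annotated transcript, inside the span of the longer one, and 74 bp upstream of the divergent nfyc-1, which encodes an NF-Y subunit. At rpn-5, a lid scaffold gene, the pooled summit lay 5 bp upstream of a start with a signal of 22.1 (rank 3530), and the replicates differed, with 17.6 (rank 1390) in replicate 1 and 7.02 (rank 15144) in replicate 2. The same summit lay 289 bp upstream of scc-1, which encodes a cohesin subunit. At rpn-2, a base scaffold gene, the pooled signal was 20.4 (rank 3934) and that of replicate 2 was 19.7 (rank 2310), and replicate 1 listed no summit in the window. For the 3 genes in this paragraph the peak thus ranked far higher in a single replicate.

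The remaining members had weaker or no summits. Pooled signals ranged from 7.98 to 13.9 at 8 core genes (pas-2, pas-4, pas-6, pas-7, pbs-2, pbs-3, pbs-5 and pbs-6). They ranged from 8.68 to 19.0 at the lid genes rpn-6.1, rpn-7, rpn-8 and rpn-12, and were 10.1 and 17.7 at the ATPase genes rpt-3 and rpt-6. By homology with yeast and mammals, pbs-1, pbs-2 and pbs-5 encode the catalytic beta subunits. Of these pbs-1 alone reached the IDR list, while pbs-2 had a pooled signal of 8.42 and pbs-5 one of 7.98. The rpn-12 summit, with a pooled signal of 9.51, was shared with rad-23, which encodes a shuttle that brings ubiquitylated proteins to the proteasome. Only replicate 1 listed a summit at pas-3 (5.24), pbs-4 (2.89) and rpn-6.2 (4.93), the last a second rpn-6 gene. The alpha ring gene pas-1, the base scaffold gene rpn-1, the ubiquitin receptor gene rpn-10 and the ATPase gene rpt-5 had no summit in the window in any list.

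Core, base and lid genes were then set side by side. In the IDR list 2 of 14 core genes (14.3%, exact 95% interval 1.78 to 42.8), 2 of 10 base genes (20%, 2.52 to 55.6) and 3 of 9 lid genes (33.3%, 7.49 to 70.1) had a summit. The share of all genes was 6.55%. The intervals overlap widely, and no difference between the particles was tested. The top list of replicate 1 gave 3 of 14 core, 1 of 10 base and 3 of 9 lid genes, against 6.36% of all genes, so that its base count was near the background. That of replicate 2 gave 0 core genes (exact 95% upper bound 23.2%), 2 base and 3 lid genes, against 6.46% of all genes. The count of core genes in replicate 2 includes neither pbs-1, which ranked 2632, nor pas-5, whose summit was just outside the window. The lid count was 3 of 9 in each of these lists, with rpn-9 and rpn-11 in every one of them.

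Pooled peaks with a deposited −log10 q-value of at least 2 gave 13 of 33 proteasome genes (39.4%), against 13.3% of all genes. By particle these were 3 of 14 core genes (21.4%, exact 95% interval 4.66 to 50.8), 5 of 10 base genes (50%, 18.7 to 81.3) and 5 of 9 lid genes (55.6%, 21.2 to 86.3). The core genes were pas-5, pbs-1 and pbs-7. The base genes were rpn-2, rpn-13, rpt-1, rpt-2 and rpt-4, and the lid genes rpn-3, rpn-5, rpn-7, rpn-9 and rpn-11. The peaks of pbs-1, pbs-7, rpn-2, rpn-3, rpn-5, rpn-7, rpn-9, rpt-2 and rpt-4 also lay in the window of another gene. They cannot be assigned to either gene from these files. The pooled rpn-7 summit lay 316 bp upstream of rpn-7 and 100 bp upstream of F49C12.9. That of rpn-2 lay 329 bp upstream of rpn-2 and 441 bp upstream of C23G10.7. At rpn-7 the signal was 13.1 in replicate 1 (rank 2157) and 4.89 in replicate 2 (rank 27016). As given above, rpt-4 and rpn-5 ranked far higher in replicate 1, and replicate 1 listed no rpn-2 summit. The base and lid shares thus rest partly on peaks that were strong in a single replicate. The core share likewise includes pbs-7, which ranked 1547 in replicate 1 and 4697 in replicate 2. At rpt-6 the value was 1.99, just below this limit. In the pooled relaxed list the shares were 11 of 14, 7 of 10 and 8 of 9, against 41.9% of all genes. Core genes were listed there about as often as regulatory genes (78.6% and 78.9%), but the replicates differed in direction. The relaxed list of replicate 1 held 92.9% of core and 73.7% of regulatory genes, against 42.2% of all genes. That of replicate 2 held 64.3% and 73.7%, against 42.7%.

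**Figure D4:**
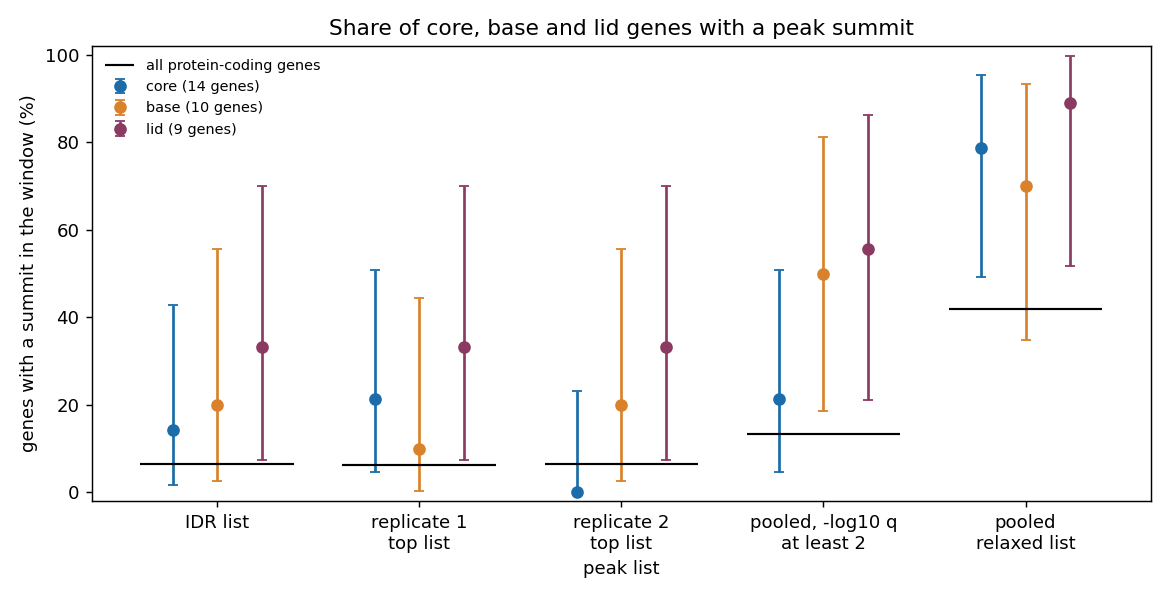
Share of core (14), base (10) and lid (9) genes with a summit in the promoter window (vertical axis, percent) in 5 peak lists, as points with exact 95% binomial intervals, and the share of all protein-coding genes as black lines. In the IDR list the points lie at 14.3%, 20% and 33.3% with overlapping intervals, and in the pooled relaxed list at 78.6%, 70% and 88.9%.

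Genes that work beside the proteasome were looked up in 3 further lists. Of 17 matched genes for ubiquitin, its enzymes and proteasome partners, 3 had an IDR summit: cdc-48.1, ubq-1 and let-70. The first encodes an unfolding ATPase that hands proteins to the proteasome, and had a signal of 271 (rank 54), with ranks of 79 and 50 in replicates 1 and 2. The polyubiquitin gene ubq-1 had a signal of 116 (rank 280), and let-70, which encodes a ubiquitin-conjugating enzyme, had 107 (rank 333) at a summit 817 bp upstream that also lay 665 bp upstream of klc-1. All 3 signals were above that of rpn-11, the highest of the subunit genes.

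Among 6 genes that act on SKN-1 or on proteasome gene expression, wdr-23 had an IDR summit 123 bp upstream with a signal of 89.5 (rank 445). It encodes the ligase receptor that keeps SKN-1 low. The gene skn-1 itself had a pooled signal of 27.6 (rank 2626) and no IDR summit. Of 7 genes of the COP9 signalosome, a complex built like the lid, 0 had an IDR summit and 4 had a pooled summit, against 41.9% of all genes for the pooled list. The background share for IDR summits, 6.55% of all genes, applies to these counts as well, and the lists are too short to set against it.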

How the data were processed

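ChIP-seq of a tagged factor was analysed through the 4 ce11 peak lists deposited for 2 replicates of a single group; the ce10 lists were not used. Per the file headers and the deposited readme these are narrowPeak lists, each replicate list made from that replicate's alignments and a further file. The authors' deposited signal value per peak was used to rank peaks within a list, and their deposited −log10 q-value only as a limit of 2. Sources used here name no aligner, peak caller, IDR threshold or depth. Intervals therefore express only counting error over genes.

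Positions are 1-based, and the summit is the peak start plus the summit offset. Genes came from Ensembl release 115 (WBcel235) and sequence from RefSeq WBcel235. Peaks of different lists were matched where they overlap by at least 1 bp. rpn-10 was counted with the base. Shares have exact 95% binomial intervals. No test of a list was made. The members and lists were chosen with earlier results of these data known. Every member with an IDR summit was named, as were members in a top list or with the 5 highest pooled signals below the IDR list. Motif matches on either strand were counted up to 50 bp from a summit. The assignment of summits was tested on simulated data. Alternatives varied the peak list, the window, the assignment and the motif window. Software was matplotlib 3.10.9, scipy 1.17.1, pandas 2.3.3 and numpy 2.4.6 under Python 3.11.15.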

Additional observations from a re-analysis of the deposited data

How the results depend on the processing

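No paired analysis was possible because both samples belong to 1 group. No IDR list was remade without a replicate, so the top list of the other replicate, already given above, stood in for it. The top lists gave 5 to 7 proteasome genes, 0 to 3 core genes, 1 to 2 base genes and 3 lid genes. In the relaxed list of the other replicate, 23 to 27 genes had a summit. With the window extended by 20 bp in replicate 2, chosen after seeing the data, pas-5 was counted and the total was 6. At IDR peaks in both top lists the counts were 4 in all, 1 core and 1 base gene, with 4.56% of other genes. In the 500 highest IDR peaks they were 0 in all, 0 core, 0 base and 0 lid genes, with 1.6% of other genes. Pooled peaks with a −log10 q-value of at least 2 gave 13 genes, 5 base and 5 lid genes, with 13.3% of other genes. The window from 500 bp upstream to 100 bp downstream gave 6 genes in all and 1 core gene (pas-5 was lost), with 4.99% of other genes. The window from 2000 bp gave 8 genes in all and 3 base genes (rpt-6 was added), with 8.79% of other genes. With nearest starts only, 6 genes in all and 1 base gene were left, with 5.13% of other genes. There rpt-2 was lost, since aps-1 starts nearer. With the most upstream start only, 7 genes were counted, with 5.84% of other genes. No CACGTG lay within 100 bp of the 7 IDR summits of the main setting, which also fixes the counts at narrower widths. It was not counted at summits under the other peak lists, windows or assignments. Counts of up to 14 genes and unknown depth limit every comparison between particles.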

Other observations

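Several proteasome genes with no IDR summit in the window had an IDR peak within 5 kb that lay in the window of another gene. The share of all genes with an IDR peak that near was not counted. The distances below therefore describe position only and mark no trait of proteasome genes. The ATPase gene rpt-6 had an IDR summit 1277 bp upstream of its start, with a signal of 61.2, which was 129 bp upstream of the histone gene his-72. The catalytic subunit gene pbs-2 had IDR summits 1343 and 1788 bp downstream of its start, with signals of 55.0 and 34.8, in the window of the alpha-tubulin gene tba-2. The ATPase gene rpt-1 had an IDR summit 2327 bp downstream of its start, with a signal of 94.1, which was 347 bp upstream of the splicing factor gene snr-4. The lid gene rpn-8 had IDR summits 2935 and 3134 bp upstream, with signals of 45.4 and 133, in the window of egg-5. The lid gene rpn-5 had an IDR summit 3172 bp upstream (rank 1175) in the window of unc-85. The other members without an IDR summit had none within 5 kb. These genes were named after their values were seen.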
